A study of Mus musculus with 6 samples.

Results

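The genes described here are 30 transcripts of cancer-associated fibroblasts and pericytes, taken by symbol from a table of 55357 genes measured in subcutaneous mouse pancreatic tumours. They fall into receptors and surface proteins, contractile genes, a mural cell gene, leucine-rich proteoglycans, elastic-fibre genes, lysyl oxidases, universal fibroblast genes and a few other secreted proteins. Each symbol named 1 row, and all 30 averaged at least 1 TPM (transcript abundance corrected for transcript length and scaled to a common library total), as did 15023 genes in all.

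The study looked at how folinic acid, a reduced folate abbreviated FA, affects the tumour microenvironment. The KPC1242 line, of mouse pancreatic ductal adenocarcinoma, was placed under the skin of C57BL/6J mice at 250000 cells per injection. Mice of the FA group received 2 mg FA by gavage each day from day 8 to day 12, mice of the PBS group received phosphate-buffered saline on the same days, and tumours were taken on day 14. There were 3 FA and 3 PBS tumours with 1 total RNA library each, all grown from the same line, in the same mouse strain and outside the pancreas. Separate mice are not stated for the tumours in the labels. The p-values set a difference against the spread between these 6 tumours, which may not stand for the spread between mice. FA samples share 1 code in their descriptions and PBS samples a different one, and the effect of whatever that code stands for cannot be told apart from that of treatment. TPM keeps no depth, so read numbers are unknown.

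Fibroblasts of a pancreatic tumour lay down collagen, proteoglycans and elastic fibres, and they are known to occur in a contractile state near the cancer cells and in a cytokine-secreting state farther away. Pericytes wrap small vessels and share contractile proteins and the receptor for platelet-derived growth factor B with fibroblasts. A further set of genes, including Pi16 and Dpt, marks resting fibroblasts that are found in many tissues and around larger vessels. In RNA from whole tumours, fewer cells of a type and less RNA per cell cannot be told apart.

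For none of the 30 genes did the difference between FA and PBS tumours pass the test against the spread between tumours. By limma on log2(TPM + 1), every one had an adjusted p = 1, and 0 of all 15023 genes (0.0%) passed an adjusted p of 0.05, where the smallest was 0.218. Unadjusted p-values under 0.05 were found for 0 of the 30 genes, against 1.28% of all genes tested. FA and PBS values overlapped for each of the 30, while 4.69% of all genes tested had groups that did not overlap. On the log2 scale 26 of the 30 had a higher mean in FA tumours, against 50.7% of all genes tested, and the other 4 a lower one. The median difference was 0.16, against 0.0016 over all genes tested. The majority of 26 was not kept without FA replicate 3. FA replicate 3 held the highest value for 27 of the 30 genes (90%), against 29.5% of all genes tested.

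Without FA replicate 3, 8 of the 30 had a higher mean in FA and 22 a lower one, where 44.7% of all genes tested had a lower one. The median difference was -0.16, against 0.013 over all genes tested. Of the 26 that were higher, 18 turned lower. Leaving out PBS replicate 2 or PBS replicate 3 left 19 higher and 11 lower in FA, with medians of 0.08 and 0.11, and leaving out FA replicate 1, FA replicate 2 or PBS replicate 1 gave medians of 0.35, 0.37 and 0.36. The fibroblast and pericyte genes were also more variable than most. Their median SD of log2(TPM + 1) was 0.64 within the FA tumours and 0.35 within the PBS tumours, against 0.18 and 0.11 over all genes tested. The lowest and highest tumour of a member were a median of 1.38 apart on the log2 scale, against 0.42 over all genes. The 95% intervals of the differences were correspondingly wide, with a median half-width of 0.83 and a range of half-widths from 0.18 to 2.13.

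**Figure D1:**
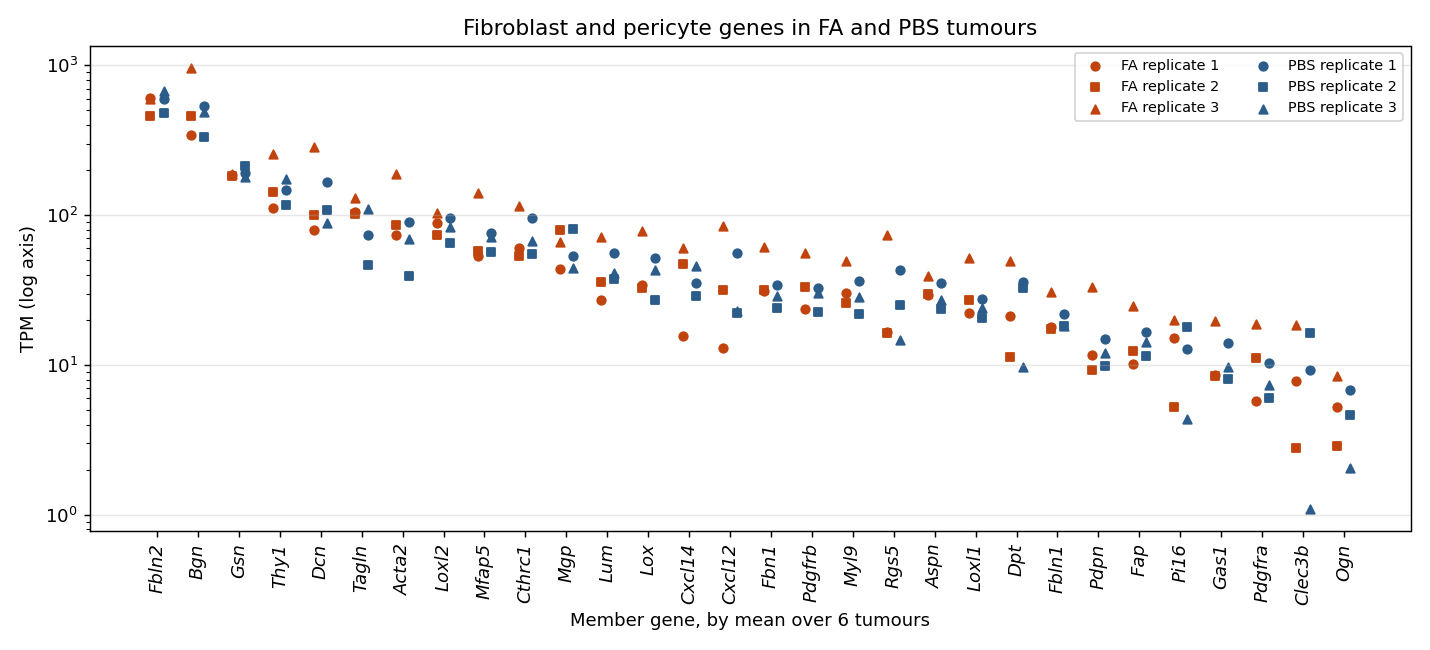
TPM of each of the 30 genes on a log axis, ordered by the mean over 6 tumours, with orange for FA and blue for PBS tumours and symbols for replicates 1, 2 and 3. FA replicate 3, the orange triangle, is the highest point for 27 of the 30 genes, and levels run from 568 TPM on average for Fbln2 to 5.02 TPM for Ogn.

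The contractile genes Acta2 and Tagln had the largest differences of the 30. Acta2 (ENSMUSG00000035783), which encodes alpha smooth muscle actin, the usual marker of contractile fibroblasts and of mural cells, stood at 74.04, 85.74 and 189.62 TPM in FA tumours, against 90.71, 39.55 and 69.51 TPM in PBS tumours. FA replicate 3 was far above the rest, PBS replicate 2 was lowest, and PBS replicate 1 lay above the other 2 FA tumours. Its mean was 117 ± 63.6 TPM in FA tumours, against 66.6 ± 25.7 TPM in PBS tumours (SD, n = 3 each). The log2 difference was 0.75 ± 0.42 (standard error), with a 95% interval from -0.27 to 1.76 (limma adjusted p = 1). It was 0.33 without FA replicate 3 and 0.42 without PBS replicate 2.

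Tagln (ENSMUSG00000032085), the actin-binding protein transgelin of smooth muscle and contractile fibroblasts, had the smallest unadjusted p of the 30, at 0.0751. Its FA tumours stood close together at 105.77, 101.36 and 129.97 TPM, against 74.3, 46.25 and 109.96 TPM in the PBS tumours. PBS replicate 3 lay within the FA range and the other PBS tumours below it. The log2 difference was 0.62 ± 0.29, with an interval from -0.08 to 1.32 (limma adjusted p = 1), and 0.51 without FA replicate 3. Without PBS replicate 2, its lowest tumour, it was 0.30. Exons of Tagln overlap antisense genes, as do those of 7 others of the 30, by as few as 7 bases for Aspn, and whether reads were shared depends on the use of strand in counting, which is not given.

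Myl9 had the same top tumours as Acta2, while Gsn varied little. Myl9, the regulatory light chain of smooth muscle myosin, stood at 30.33, 26.03 and 49.85 TPM in FA tumours, against 36.43, 21.98 and 28.3 TPM in PBS tumours. FA replicate 3 was highest, PBS replicate 1 next and PBS replicate 2 lowest, as for Acta2. The Myl9 difference of 0.26 ± 0.27 was -0.011 without FA replicate 3. Gsn, the actin-severing protein gelsolin, was nearly level at 185.73, 181.94 and 187.69 TPM in FA tumours, against 190.82, 212.7 and 179.7 TPM in PBS tumours. Its lowest and highest tumour were 1.18-fold apart, the narrowest span of the 30 genes, and its difference was -0.07 ± 0.07 with an interval from -0.25 to 0.11. Genes for smooth muscle contraction are known targets of serum response factor, which binds the CArG box. The windows of 250 bases before the start of Acta2 (chr19:34255374-34255623, minus strand) and Myl9 (chr2:156775214-156775463, plus strand) in RefSeq, build GRCm38.p6, are shown because these genes had matches, which stand in capitals. Both are written 5′ to 3′ on the strand of the gene.
Acta2 upstream window: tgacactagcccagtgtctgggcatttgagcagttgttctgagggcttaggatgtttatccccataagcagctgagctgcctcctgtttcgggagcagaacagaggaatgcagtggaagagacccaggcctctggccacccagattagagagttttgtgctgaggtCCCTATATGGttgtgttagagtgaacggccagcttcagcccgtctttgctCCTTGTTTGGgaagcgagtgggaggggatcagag
Myl9 upstream window: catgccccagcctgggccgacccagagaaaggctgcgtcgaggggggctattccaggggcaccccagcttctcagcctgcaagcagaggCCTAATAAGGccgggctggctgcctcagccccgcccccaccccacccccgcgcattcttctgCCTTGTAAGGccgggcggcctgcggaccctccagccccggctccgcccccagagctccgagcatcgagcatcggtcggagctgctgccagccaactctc
The match that begins 161 bases before the start of Myl9 is a full CArG box. The capitals that begin 99 bases before the start of Myl9, and 84 and 34 bases before that of Acta2, are near matches with 1 inner base C or G. The search read both strands, and a near match was counted apart from a full one. RefSeq windows were at hand for 17 of the 30 genes, 20 windows in all. A full match was found in 1 of these 20 windows and in 1.47% of 32851 windows of all genes. Near matches were found in 4 of the 20, those of Acta2, Myl9, Gsn and Fbln2, and in 7.25% of all windows. A match describes the letters and not a bound site.

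The receptor and surface genes had higher means in FA tumours in 6 of 6 cases, and FA replicate 3 was the highest tumour in each. Pdgfra, the receptor for platelet-derived growth factor A that marks fibroblasts, stood at 5.75, 11.16 and 18.74 TPM in FA tumours, against 10.34, 5.98 and 7.39 TPM in PBS tumours. FA replicate 1 was the lowest of all 6, so the FA tumours enclosed the whole PBS range. Its difference was 0.43 ± 0.39, and 0.05 without FA replicate 3. Pdgfrb, the receptor for platelet-derived growth factor B shared by pericytes and fibroblasts, stood at 23.74, 33.0 and 56.01 TPM in FA tumours, against 32.58, 22.5 and 30.07 TPM in PBS tumours. Without FA replicate 3 its difference of 0.32 ± 0.31 came to -0.0024.

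Fap, the fibroblast activation protease, stood at 10.22, 12.34 and 24.71 TPM in FA tumours, against 16.68, 11.44 and 14.16 TPM in PBS tumours, a difference of 0.07 ± 0.31. Thy1, a surface glycoprotein of fibroblasts and of T cells in the mouse, averaged 170 ± 76.9 TPM in FA tumours, against 146 ± 28.1 TPM in PBS tumours. Pdpn, the mucin-like ligand podoplanin, stood at 11.67, 9.28 and 33.16 TPM in FA tumours, against 14.97, 9.92 and 12.06 TPM in PBS tumours. Gas1, a membrane co-receptor for hedgehog ligands, averaged 12.2 ± 6.38 TPM in FA tumours, against 10.6 ± 3.11 TPM in PBS tumours. Without FA replicate 3 the differences of Fap, Thy1, Pdpn and Gas1 lay at -0.29, -0.20, -0.21 and -0.26. Without PBS replicate 2 those of Fap, Thy1 and Gas1 were also below 0, at -0.063, -0.0031 and -0.050, and that of Pdpn was 0.19.

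Rgs5, a regulator of G-protein signalling that marks pericytes, stood at 16.61, 16.3 and 74.24 TPM in FA tumours, against 42.97, 25.26 and 14.64 TPM in PBS tumours. FA replicate 3 was 4.47-fold above the next FA tumour, and the other 2 FA tumours lay beside the lowest PBS tumour. Its log2 difference was 0.11 ± 0.64, with an interval from -1.42 to 1.65, and -0.59 without FA replicate 3. Among 19 other mural and smooth muscle genes, 18 passed the expression filter, 17 had a higher mean in FA and 1 a lower one, and 0 passed an adjusted p of 0.05. Their median difference was 0.16, and -0.04 without FA replicate 3. The 4 with the smallest unadjusted p were Actg2, Mylk, Tpm1 and Cspg4. Actg2, gamma smooth muscle actin, averaged 8.98 ± 4.60 TPM in FA tumours, against 4.71 ± 2.65 TPM in PBS tumours, a difference of 0.84 ± 0.47. The differences of Mylk, which encodes myosin light chain kinase, of the tropomyosin gene Tpm1 and of the pericyte proteoglycan gene Cspg4 were 0.24, 0.16 and 0.38.

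**Figure D2:**
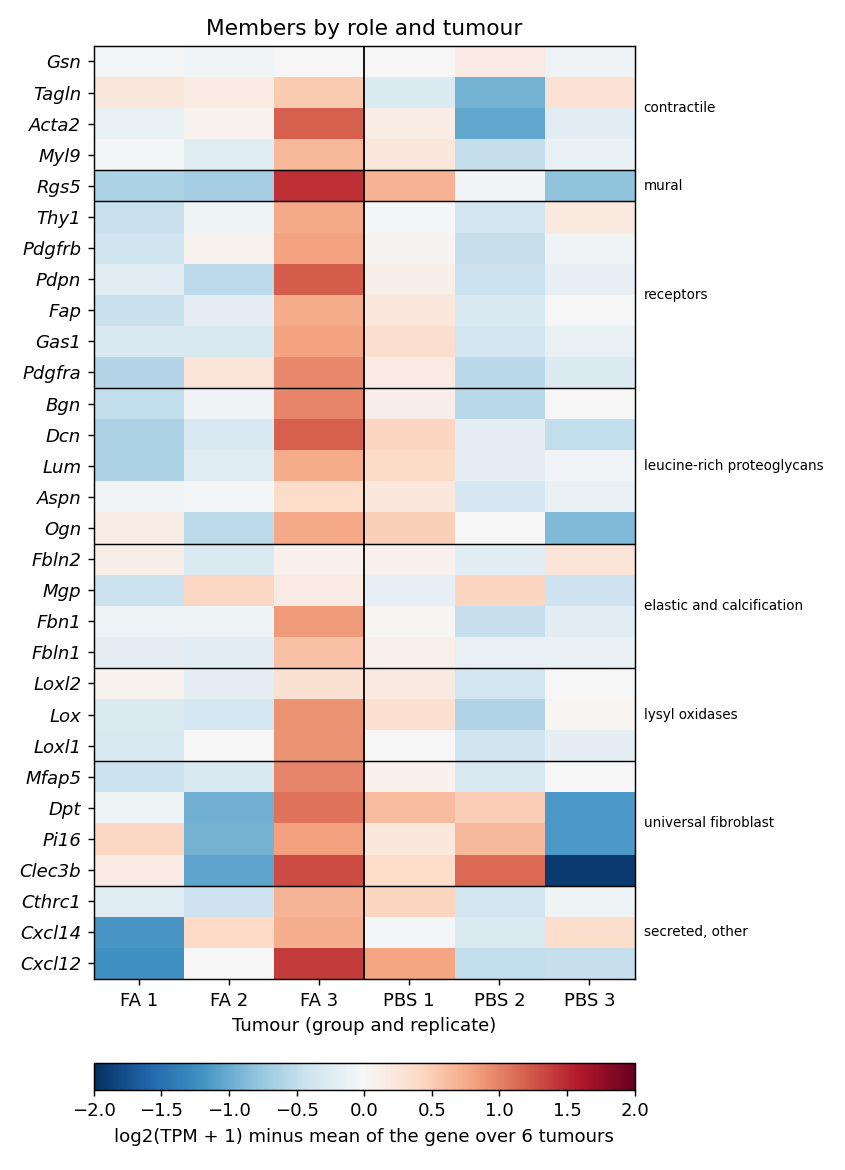
log2(TPM + 1) of each gene minus its mean over 6 tumours, with genes in rows grouped by role and the FA tumours left of the PBS tumours, red for higher and blue for lower. The column of FA replicate 3 is red in nearly every row, and Dpt, Pi16 and Clec3b are bluest in FA replicate 2 and PBS replicate 3.

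The small leucine-rich proteoglycans, which bind collagen fibrils and set their spacing, had their highest value in FA replicate 3 in 5 of 5 cases. Bgn, biglycan, stood at 345.25, 462.6 and 961.15 TPM in FA tumours, against 537.15, 335.03 and 485.59 TPM in PBS tumours. Dcn, decorin, stood at 80.08, 100.08 and 285.93 TPM in FA tumours, against 166.93, 108.52 and 88.08 TPM in PBS tumours. For Bgn and Dcn, PBS replicate 1 was the next tumour after FA replicate 3, and FA replicate 1 lay at or near the bottom. Their differences were 0.27 ± 0.38 and 0.17 ± 0.49, and -0.15 and -0.38 without FA replicate 3.

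Lum, lumican, which RefSeq places next to Dcn on chromosome 10 with 0 protein-coding genes between them, stood at 27.1, 35.79 and 71.93 TPM in FA tumours, against 55.96, 37.53 and 41.08 TPM in PBS tumours. FA replicates 1 and 2 were the lowest tumours of the 6 and FA replicate 3 the highest. The mean was 44.94 TPM in FA tumours, against 44.86 TPM in PBS tumours, while the log2 difference, which weighs high values less, was -0.10 ± 0.35 and -0.49 without FA replicate 3. Aspn, asporin, averaged 32.7 ± 5.67 TPM in FA tumours, against 28.6 ± 5.79 TPM in PBS tumours. Ogn, osteoglycin, which lies near Aspn on chromosome 13 with 1 protein-coding gene between them, averaged 5.53 ± 2.80 TPM in FA tumours, against 4.50 ± 2.39 TPM in PBS tumours. For both, FA replicate 3 was highest and PBS replicate 1 next. Their lowest tumours differed, since FA replicate 2 and PBS replicate 3 were the lowest for Ogn and PBS replicate 2 and PBS replicate 3 for Aspn.

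The genes of elastic fibres and calcification were divided. Fbn1, fibrillin-1, the backbone of elastic microfibrils, stood at 31.23, 31.57 and 61.19 TPM in FA tumours, against 34.34, 24.11 and 28.76 TPM in PBS tumours. Its difference was 0.44 ± 0.27, and 0.12 without FA replicate 3. Fbln1, the basement membrane and elastic fibre protein fibulin-1, averaged 22.1 ± 7.72 TPM in FA tumours, against 19.5 ± 2.16 TPM in PBS tumours. Fbln2, fibulin-2, and Mgp, matrix Gla protein, an inhibitor of calcification, did not have their highest value in FA replicate 3. Fbln2 was the most abundant of the 30, at 607.72, 458.12 and 594.24 TPM in FA tumours, against 596.57, 479.86 and 669.6 TPM in PBS tumours, with PBS replicate 3 highest. Mgp stood at 44.05, 80.13 and 66.68 TPM in FA tumours, against 53.16, 80.51 and 44.5 TPM in PBS tumours, with PBS replicate 2 highest and FA replicate 2 just under it. The differences of Fbln2 and Mgp were -0.07 ± 0.16 and 0.10 ± 0.28.

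Lysyl oxidases cross-link collagen and elastin, and FA replicate 3 was highest for 3 of 3. Lox, the founding member of the family, stood at 33.96, 32.47 and 78.56 TPM in FA tumours, against 52.16, 27.11 and 42.8 TPM in PBS tumours, a difference of 0.17 ± 0.38. Loxl1, which acts on elastic fibres, stood at 22.09, 27.19 and 51.8 TPM in FA tumours, against 27.6, 20.57 and 24.16 TPM in PBS tumours, a difference of 0.38 ± 0.30. Loxl2 averaged 89.0 ± 15.0 TPM in FA tumours, against 81.3 ± 15.2 TPM in PBS tumours. Without FA replicate 3 the differences were -0.24, 0.03 and 0.01 for Lox, Loxl1 and Loxl2. Loxl2 had the highest level of these 3 genes in every tumour.

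Among the other secreted proteins, Cxcl12, the chemokine of CXCR4-bearing cells, varied most. It stood at 13.09, 31.81 and 85.36 TPM in FA tumours, against 55.83, 22.23 and 22.79 TPM in PBS tumours. FA tumours held the lowest and the highest value, 6.52-fold apart. Its difference was 0.12 ± 0.68 with an interval from -1.50 to 1.73, and -0.55 without FA replicate 3. Cxcl14, a chemokine of fibroblasts and epithelia, stood at 15.51, 47.32 and 60.17 TPM in FA tumours, against 35.44, 28.99 and 45.86 TPM in PBS tumours, a difference of -0.02 ± 0.48. Cthrc1, a secreted collagen triple helix repeat protein of activated fibroblasts, averaged 76.1 ± 33.8 TPM in FA tumours, against 72.7 ± 20.9 TPM in PBS tumours. FA replicate 1 was the lowest tumour for both chemokine genes.

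The universal fibroblast genes also had their highest value in FA replicate 3, in 4 of 4 cases, while Dpt, Pi16 and Clec3b shared their lowest tumours. Dpt, dermatopontin, a small matrix protein, stood at 21.38, 11.25 and 49.4 TPM in FA tumours, against 35.87, 32.56 and 9.69 TPM in PBS tumours. Pi16, a secreted peptidase-inhibitor family protein that marks adventitial fibroblasts, stood at 15.05, 5.24 and 20.08 TPM in FA tumours, against 12.87, 17.85 and 4.38 TPM in PBS tumours. Clec3b, the plasminogen-binding protein tetranectin, stood at 7.85, 2.81 and 18.51 TPM in FA tumours, against 9.23, 16.43 and 1.1 TPM in PBS tumours. For all 3 genes FA replicate 2 and PBS replicate 3 were the lowest pair of tumours. Clec3b spanned 16.8-fold over the 6 tumours and 14.9-fold within the PBS group alone, the widest of the 30 genes. Pi16 spanned 4.08-fold and Dpt 3.70-fold within the PBS group. FA replicate 2 and PBS replicate 3 were the lowest pair for 6 of the 30 genes (20%), which also included Rgs5, Ogn and Gsn, and for 5.69% of all genes tested. FA replicate 3 highest and PBS replicate 1 next held for 20 of the 30 genes (66.7%) and for 13.2% of all genes tested. Dpt, Rgs5 and Ogn had both of these patterns. Both patterns were picked after the values were seen, so the shares beside all genes tested are a description. Mfap5, a microfibril protein grouped with them, stood at 53.18, 57.53 and 141.27 TPM in FA tumours, against 76.44, 56.89 and 71.51 TPM in PBS tumours. The differences of Dpt, Pi16, Clec3b and Mfap5 were 0.02 ± 0.64, 0.20 ± 0.60, 0.27 ± 0.89 and 0.16 ± 0.36, and all 4 were below 0 without FA replicate 3, from -0.16 to -0.51.

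**Figure D3:**
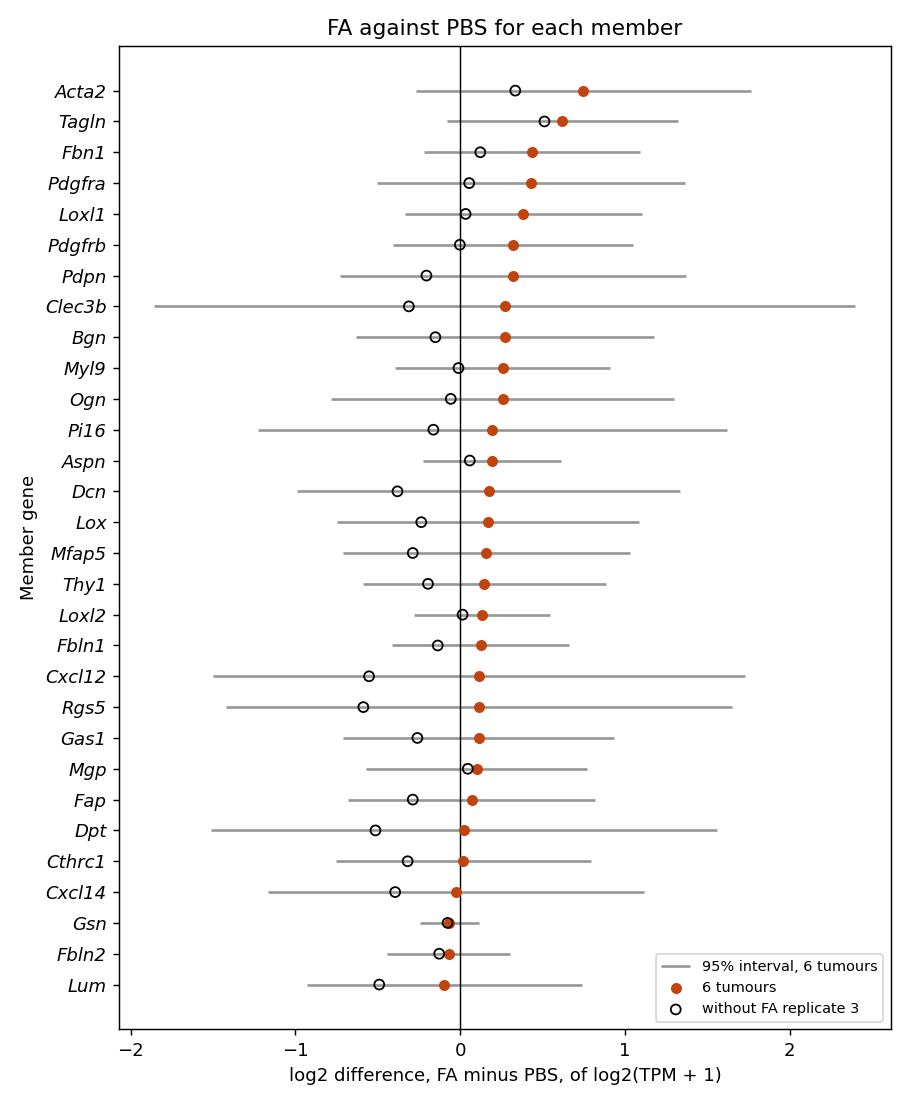
log2 difference, FA minus PBS, of log2(TPM + 1) for each gene with its 95% interval (filled points and bars, 6 tumours), and the same difference without FA replicate 3 (open circles). Every interval includes 0, and 22 open circles lie below 0, where 4 filled points do.

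Because most of the 30 genes moved together between tumours, each was also set against Bgn of the same tumour, a choice made after the values were seen. Bgn itself spanned 2.87-fold. The 5 genes with the narrowest ratio to it were Pdgfrb, which spanned 1.22-fold, Loxl1 at 1.29-fold, Fap and Thy1 at 1.33-fold and Mfap5 at 1.37-fold over the 6 tumours. Over all 29 other genes the median span of this ratio was 1.79-fold, against 3.12-fold over the 14812 genes tested that were above 0 in every tumour. Bgn was picked from genes that moved together, and its own spread gives a wide ratio to genes with level values, such as Gsn. These medians are therefore a description and no measure of shared movement. The ratio was widest for Clec3b, Pi16 and Dpt, at 21.7-fold, 5.91-fold and 4.87-fold, followed by Ogn, Mgp and Gsn at 3.59-fold, 3.46-fold and 3.25-fold. Fbln2, Cxcl12 and Rgs5 spanned 2.85-fold, 2.74-fold and 2.65-fold, and Loxl2, Cxcl14 and Tagln 2.38-fold, 2.28-fold and 2.27-fold.

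Acta2 and Lum had ratios to Bgn that did not overlap between the groups. This was so for 2 of the 29 other genes and for 0.353% of the 15022 other genes tested. The spread of Bgn itself enters every ratio, and on plain levels 4.69% of all genes tested had groups that did not overlap. Setting 2 of 29 against 0.353% is therefore no measure of an excess. Acta2 was 21.5%, 18.5% and 19.7% of the Bgn level in FA tumours, against 16.9%, 11.8% and 14.3% in PBS tumours. Lum was 7.85%, 7.74% and 7.48% of the Bgn level in FA tumours, against 10.4%, 11.2% and 8.46% in PBS tumours. These genes are named because their ratios did not overlap, so the separation is a description. The log2 difference relative to Bgn was 0.48 ± 0.57 for Acta2 and -0.37 ± 0.57 for Lum. The median over all genes on this scale was -0.27, and neither gene passed the test (limma adjusted p = 0.945 for each). The fit pooled the variance over genes, and Clec3b, with the widest ratio, had a standard error of 0.57 as well. These errors are therefore not the spread of the Acta2 or Lum ratio, and this test cannot decide whether either differed. Relative to the collagen genes Col1a1, Col1a2 and Col3a1, the groups did not overlap for Acta2 and Lum, 2 of 30 genes. The share over 15020 genes was 0.193%. The differences of Acta2 and Lum were 0.41 and -0.44, beside a median of -0.34 over all genes (limma adjusted p = 0.913 for each). The same limits hold for this share and this test.

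**Figure D4:**
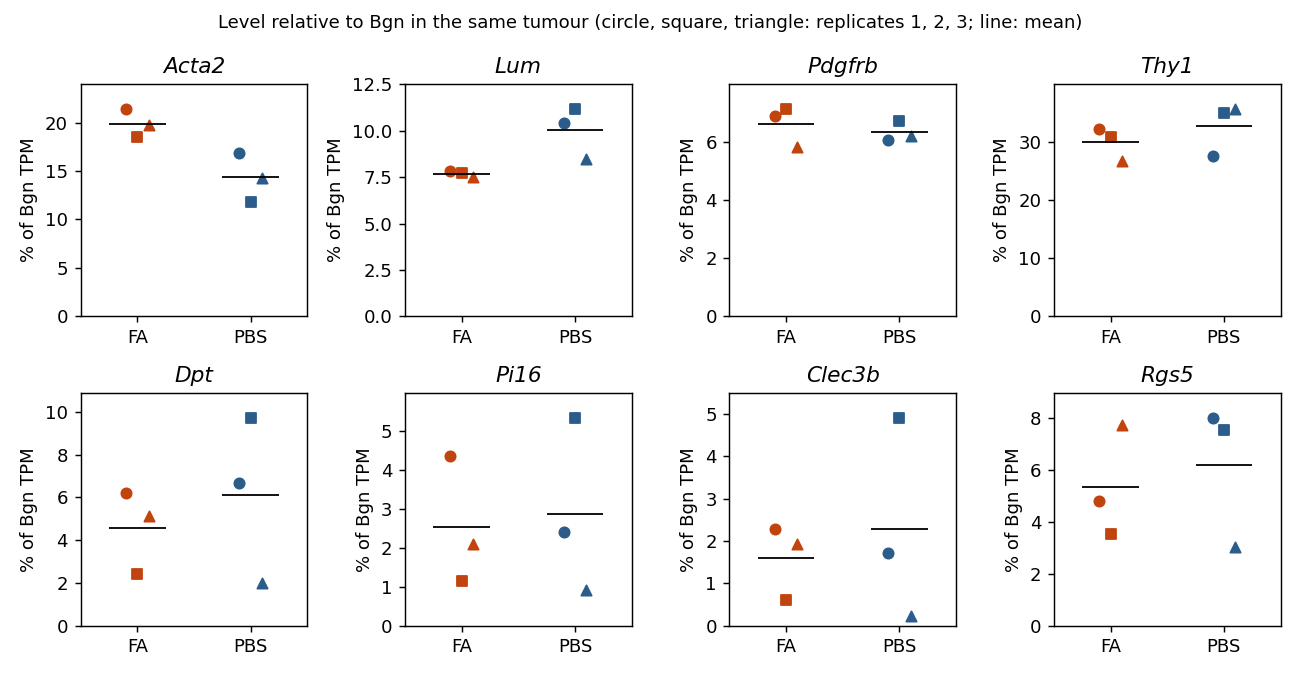
Level of 8 genes as a percent of the Bgn TPM in the same tumour, FA left of PBS, with symbols for replicates 1, 2 and 3 and a line at the mean. Acta2 lies higher and Lum lower in all 3 FA tumours, Pdgfrb and Thy1 hold a narrow range, and Dpt, Pi16 and Clec3b are lowest in FA replicate 2 and PBS replicate 3.

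Further genes of the same cells and pathways were examined as lists, and 0 genes of any list passed an adjusted p of 0.05 by limma. Of 19 other fibroblast genes, 18 passed the expression filter, 14 had a higher mean in FA and 4 a lower one, and Tcf21 was listed at 0 in all tumours. Their median difference was 0.22, and -0.13 without FA replicate 3. Col1a2, a chain of type I collagen, stood at 475.35, 576.35 and 1485.54 TPM in FA tumours, against 795.11, 401.93 and 585.62 TPM in PBS tumours. The differences of the fibroblast transcription factor gene Prrx1, of follistatin-like Fstl1 and of fibronectin (Fn1) were 0.36, 0.16 and -0.12.

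The ligands of the growth factor receptors were divided. Of 4 platelet-derived growth factor genes, 1 had a higher mean in FA and 3 a lower one. Pdgfb, the ligand that recruits pericytes, averaged 49.5 ± 14.0 TPM in FA tumours, against 42.9 ± 1.20 TPM in PBS tumours, and Pdgfc 36.0 ± 10.2 TPM in FA tumours, against 41.2 ± 1.77 TPM in PBS tumours. FA replicate 3 was highest for Pdgfb and lowest for Pdgfc. The differences of Pdgfd and Pdgfa were -0.09 and -0.06.

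Of 16 genes of transforming growth factor beta signalling, a main driver of contractile fibroblasts, 8 had a higher and 8 a lower mean, with a median of 0.0055. Ltbp2, a microfibril-associated protein of the latent TGF-beta binding family, stood at 8.94, 9.23 and 15.21 TPM in FA tumours, against 7.51, 4.86 and 7.73 TPM in PBS tumours, so the groups did not overlap, which held for 1 of the 16 genes, against 4.69% of all genes tested. Its difference was 0.64 ± 0.25 (limma unadjusted p = 0.0367, adjusted p = 1), and 0.41 without FA replicate 3. Tgfbr2, Tgfb3 and Ltbp1 had differences of 0.23, -0.15 and -0.16. Of 12 inflammatory fibroblast genes, 11 passed the filter, and 8 had a higher and 3 a lower mean. Without FA replicate 3, 11 of these 11 were lower in FA, with a median of -0.22, and so were 44.7% of all genes tested. Among the 11, Cxcl1, Il6 and Il11 were low, averaging 1.05, 2.07 and 2.89 TPM over the tumours. The cytokine genes Lif, Il11, Cxcl1 and Ccl2 had differences of 0.32, 0.37, 0.40 and 0.26. The genes listed for antigen-presenting fibroblasts, H2-Aa, H2-Ab1, Cd74 and Slpi, had differences of 0.12, 0.12, 0.10 and -0.05. Values of whole tumours do not tell which cells these transcripts came from.

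Markers of several other cell types were also highest in FA replicate 3. Summed over 8 endothelial markers, TPM came to 93.7, 121 and 344 in FA tumours, against 156, 98.0 and 123 in PBS tumours, and FA replicate 3 was highest for 8 of 8. Summed over 8 skeletal muscle markers, TPM came to 12.8, 137 and 1136 in FA tumours, against 165, 14.6 and 122 in PBS tumours, with Ckm and Myh1 listed at 0 in FA replicate 1 and PBS replicate 2. For 6 macrophage markers the sums were 435, 464 and 823 in FA tumours, against 526, 459 and 417 in PBS tumours. For 6 adipocyte markers they were 24.3, 71.8 and 207 in FA tumours, against 70.6, 70.1 and 34.1 in PBS tumours. In PBS replicate 1 most of the adipocyte sum was Fabp4, at 61.02 TPM, with Adipoq at 0.26 and Cfd at 0.2 TPM. In PBS replicate 2, with a similar sum, Fabp4 stood at 32.03, Adipoq at 2.55 and Cfd at 22.22 TPM. FA replicate 3 was the highest tumour for each of these 4 sums. The 8 tumour epithelium markers, which check the carcinoma label, summed to 5771, 5992 and 6082 TPM in FA tumours, against 5178, 6107 and 5396 TPM in PBS tumours. Most of each sum came from Krt8, Krt18 and Krt19, and the markers were divided in FA replicate 3. It was the highest tumour for Krt8, Krt19 and Epcam, and neither highest nor lowest for Krt7 and Krt18. For Cdh1, Msln and Muc1 it was the lowest, at 252.87, 231.98 and 238.28 TPM.

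The 30 fibroblast and pericyte genes summed to 2103, 2189 and 3885 TPM in FA tumours, against 2677, 1976 and 2426 TPM in PBS tumours. Keratinocyte markers were scarce, with Krt5 and Dsg1a listed at 0 in all tumours and 6 markers summing to 9.71, 11.6 and 13.3 TPM in FA tumours, against 9.50, 9.37 and 10.1 TPM in PBS tumours. For 4 Schwann cell markers the sums were 20.2, 14.8 and 23.8 TPM in FA tumours, against 30.7, 40.5 and 18.2 TPM in PBS tumours. FA replicate 2 and PBS replicate 3, the low pair for Dpt, Pi16 and Clec3b, were thus also low here. The part of these other cell types in the values of the 30 genes was not tested.

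**Figure D5:**
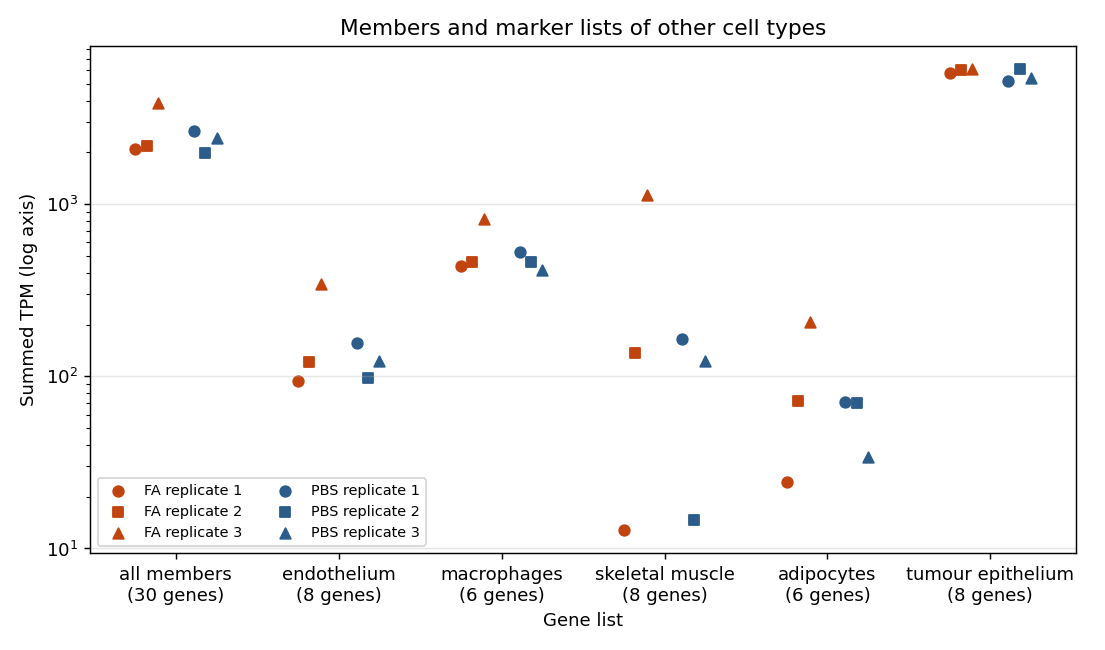
Summed TPM on a log axis of the 30 genes and of marker lists of 5 other cell types, FA left of PBS, with symbols for replicates 1, 2 and 3. FA replicate 3 is highest for the 30 genes and for endothelium, macrophages, skeletal muscle and adipocytes, and the tumour epithelium sums lie between 5178 and 6107 TPM.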

How the data were processed

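RNA of 6 tumours was measured, 3 FA and 3 PBS, grouped by sample title. The authors deposited 1 table of TPM, the unit its name gives, with columns that all reach the same sum. Per the submitters' processing notes, FastQC, STAR, featureCounts and RSEM were named. What each tool did, and with which genome build and annotation, is not given in the sources used here. Depth per tumour is unknown, because TPM keeps none, so no counting interval is given. The stranded kit took 4 µg of RNA with an integrity number over 8, and amplification ran for 12 cycles, per the labels' protocols. Whether strand was used in counting is not given. In a mouse annotation, exons of Aspn, Fbn1, Gas1, Lox, Loxl2, Pdgfra, Pi16 and Tagln (8 of the 30 genes) overlap a gene on the opposite strand, by 7 bases for Aspn and 30 for Lox, and without strand such reads could be shared.

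A limma model (version 3.58.1, R 4.3.3) of FA against PBS, with no covariate and a variance trend, was fitted to log2(TPM + 1) of the 15023 genes averaging 1 TPM or more. Benjamini-Hochberg adjustment of the two-sided p-values ran over all of these genes, and intervals are at 95%. The pseudocount of 1 understates differences of low genes. Levels relative to Bgn or to collagens were log2 ratios within a tumour, refitted over all genes. The fit was tested on simulated data. Alternatives were a pseudocount of 0.1, no filter, a minimum mean of 5 TPM, rescaling by median ratios, no trend, array weights, a replicate block and leaving out each tumour. The members and gene lists were chosen with earlier results of these data known. All 30 members are named, and of each pathway list the 4 genes with the smallest unadjusted p.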

Additional observations from a re-analysis of the deposited data

How the results depend on the processing

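On plain levels, limma called 0 genes in either direction at an adjusted p of 0.05, and 2 alternatives changed this. Dropping the filter added Gm24045 and Gm22728, so that 2 genes were higher in FA, and the fits that each lacked a tumour called 0 to 1 gene lower, which was Snord14d without FA replicate 3. At an unadjusted p under 0.05, 0 of the 30 fibroblast and pericyte genes became 1 with the replicate number as a block (Tagln) and 0 to 2 when 1 tumour was left out. These were Cxcl14 and Pdgfra without FA replicate 1, Lum without FA replicate 3 and Tagln without PBS replicate 3. Same-numbered tumours did not deviate together, with correlations of -0.21, 0.053 and -0.022 across genes, against -0.192 to 0.245 for pairs of unlike number. Replicates 1 and 2 also share the end of their description code between the groups, and what it stands for is not given. The median difference was -0.073 with array weights, which gave FA replicate 3 a weight of 0.217 against 1.03 to 2.23 for the others, and -0.16 to 0.37 when 1 tumour was left out, lowest without FA replicate 3. Array weights turned 13 genes lower in FA, namely Bgn (-0.081), Cthrc1 (-0.26), Cxcl12 (-0.32), Dcn (-0.17), Dpt (-0.19), Fap (-0.21), Fbln1 (-0.065), Gas1 (-0.18), Lox (-0.20), Mfap5 (-0.20), Pdpn (-0.10), Rgs5 (-0.30) and Thy1 (-0.16). Leaving out 1 tumour changed the sign of 18 genes without FA replicate 3, 11 without PBS replicate 3, 7 without PBS replicate 2, 3 without FA replicate 2, 2 without FA replicate 1 and 1 without PBS replicate 1. The ranges over these fits were -0.15 to 0.59 for Bgn, -0.62 to 0.91 for Clec3b, -0.32 to 0.23 for Cthrc1, -0.55 to 0.75 for Cxcl12, -0.39 to 0.55 for Cxcl14, -0.38 to 0.53 for Dcn and -0.55 to 0.51 for Dpt. They were -0.29 to 0.31 for Fap, -0.14 to 0.26 for Fbln1, -0.20 to 0.060 for Fbln2, -0.26 to 0.32 for Gas1, -0.24 to 0.39 for Lox, -0.015 to 0.26 for Loxl2, -0.49 to 0.20 for Lum and -0.29 to 0.41 for Mfap5. They were -0.085 to 0.34 for Mgp, -0.011 to 0.45 for Myl9, -0.12 to 0.58 for Ogn, -0.0024 to 0.60 for Pdgfrb, -0.21 to 0.66 for Pdpn, -0.33 to 0.72 for Pi16, -0.59 to 0.49 for Rgs5 and -0.20 to 0.41 for Thy1. The cause was not tested. Acta2 (0.33 to 1.01), Tagln (0.30 to 0.92), Fbn1 (0.12 to 0.60), Pdgfra (0.05 to 0.83), Loxl1 (0.03 to 0.63) and Aspn (0.06 to 0.34) stayed higher in FA in each of these fits, and Gsn (-0.12 to -0.00056) lower. No sign changed with a pseudocount of 0.1, no filter, a minimum mean of 5 TPM, rescaling by median ratios, no variance trend or the block. Levels relative to Bgn or to collagens, and their alternatives, were chosen after the values were seen. The limma refits relative to Bgn and to the collagens called 3 and 2 genes at an adjusted p of 0.05. In each of these refits 0 of the fibroblast and pericyte genes had an unadjusted p under 0.05. What depth limits cannot be told, since TPM holds none.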
